A study of Mus musculus with 3 samples.

Results

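The hairpins Mir140 and Mir423 each give rise to reads of their 3p arm that begin at more than 1 position, and these shifted 5′-starts are described here in MIN6 cells. They were chosen by their read counts in these same libraries, in which both shifted forms are abundant. The starts were located by the values that the study lists for miR-140-3p, miR-140-3p+1, miR-423-3p, miR-423-3p-1 and miR-423-5p, which gave 5 starts of the 1111703 5′-starts present in the libraries. A name with +1 denotes a start 1 base downstream of the 5′-reference miRNA, and a name with -1 denotes a start 1 base upstream. The most abundant start of the 5p arm of Mir140 was added as the opposite arm, and the 2 hairpins held 10 starts with at least 10 reads in every library. Levels at these starts, and the ratio of a shifted form to its reference, were used to choose the members and are given without a test, as are the ratios between the arms, which rest on the same levels. The 3′-ends, tails and mismatches of the reads were not used, except that mismatching bases served to check that a start lay on its hairpin.

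MIN6 is a mouse insulinoma cell line that is used as a model of the insulin-secreting beta cell of the pancreas. Small RNA was sequenced in 3 biological replicates, all grown in DMEM with 25 mM glucose, serum and no further treatment named in the labels. The libraries therefore form 1 group, and no comparison between conditions exists. MIN6 is a tumor line kept in culture and not primary beta cells.

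A miRNA is cut from a hairpin precursor by the nucleases Drosha and Dicer, and either strand of the duplex can be loaded into an Argonaute protein. Pairing of nucleotides 2 to 8 of the miRNA, the seed, with a target RNA largely sets which RNAs are repressed, so a start that moves by 1 base replaces the seed. Terminal nucleotidyl transferases can add uridine or adenosine to the 3′-end of a miRNA, and such added bases are seen as mismatches that follow the part of the read that matches the hairpin. miR-140 is best known for its high expression in cartilage, and Mir423 is expressed in many tissues.

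The sequences show what the shift does to the seed, which is given in capitals. They were taken from the RefSeq hairpins (GRCm38.p6) from each start to its most frequent 3′-end.
miR-140-3p: uACCACAGgguagaaccacggac
miR-140-3p+1: aCCACAGGguagaaccacggac
miR-140-3p+2: cCACAGGGuagaaccacggac
miR-140-5p: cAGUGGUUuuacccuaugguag
miR-423-3p-1: aAGCUCGGucugaggccccucagu
miR-423-3p: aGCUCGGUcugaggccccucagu
miR-423-5p: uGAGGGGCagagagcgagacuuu

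Among the 1738 mature mouse sequences of the same RefSeq table, the seed of miR-140-3p was shared by miR-497b. The seeds of miR-140-3p+1, miR-140-3p+2, miR-423-3p and miR-423-3p-1 were found in 0 other mature sequences. The RefSeq mature miR-140-3p is 21 nt long and stops 2 bases before the most frequent 3′-end of these libraries, whereas the RefSeq mature miR-423-3p stops exactly there.

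Mir140 lies within Wwp2, which encodes an E3 ubiquitin ligase, and Mir423 lies within Nsrp1, which encodes a nuclear speckle splicing regulator, each on the strand of its host gene (GENCODE annotation of GRCm38). Mir140 overlaps an exon of a retained-intron transcript of Wwp2 and is otherwise intronic, and Mir423 is intronic. In the genome build of the deposited files (mm9), miR-140-3p starts at position 110075188 of the plus strand of chromosome 8, and miR-140-3p+1 starts at 110075189. miR-423-3p starts at position 76891610 of the minus strand of chromosome 11, and miR-423-3p-1 starts at 76891611. The opposite arms start at 110075149 (miR-140-5p) and 76891646 (miR-423-5p).

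The libraries held 9269795, 10816006 and 10218743 mapped reads in replicates 1, 2 and 3, so that 0 reads of a start allow up to 0.324 RPM (mapped reads scaled to a total of 1000000) in the shallowest library. Reads with a mismatch at the 3′-end made up 13.2% to 13.8% of the mapped reads, which is close between the libraries. The start listed as miR-375-3p, the miRNA that marks pancreatic endocrine cells, was expressed at 354247 ± 18597 RPM (SD, n = 3), although this start was placed by its value alone. The markers of other cell types that were looked for, miR-122-5p (hepatocytes) and miR-143-3p (smooth muscle), could not be placed, so the sample was not checked against them. At every start of the 2 hairpins described here, 99.7% to 100% of the reads had a single locus, and 0 reads mapped to the opposite strand of the hairpins.

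In Mir140 the shifted form was the main product of the 3p arm. miR-140-3p+1 was covered by 3020, 3553.5 and 3110.6 reads in replicates 1, 2 and 3, or 326, 329 and 304 RPM (mean 320 ± 13.2 RPM, SD, n = 3). The 5′-reference miRNA miR-140-3p was covered by 1309, 1983 and 1776 reads, or 141, 183 and 174 RPM (166 ± 22.1 RPM). The ranges of these starts over the libraries did not overlap, and the reference form varied more, being lowest in replicate 1.

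Relative to miR-140-3p, miR-140-3p+1 was 2.31, 1.79 and 1.75 times as abundant (1.95 ± 0.310, SD, n = 3). It held 66.7%, 61.8% and 61.7% of the reads of the 3p arm, with 95% Wilson intervals of 65.3% to 68.0%, 60.5% to 63.0% and 60.3% to 63.0%, which cover counting error only. The start at +2, miR-140-3p+2, was weak, with 186, 192 and 135 reads (17.0 ± 3.49 RPM) and 3.37% ± 0.716 of the arm. The next start at +3 had 5, 11 and 8.14 reads and did not reach 10 in every library.

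The 5p arm of Mir140 behaved differently, since 98.9% ± 0.308 of its reads began at a single position. miR-140-5p was covered by 271, 295 and 274 reads (27.8 ± 1.27 RPM). The reads of the 3p arm exceeded those of the 5p arm 16.6-, 19.2- and 18.3-fold, and the mean log2 ratio was 4.17 ± 0.11 (SD, n = 3). Every library had more 3p than 5p reads.

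In Mir423 the 5′-reference miRNA remained the main product, and the shifted form began 1 base upstream. miR-423-3p was expressed at 1147, 1255 and 1288 RPM (1230 ± 73.8 RPM, SD, n = 3), and ranked 72, 66 and 70 among all 5′-starts of the 3 libraries. miR-423-3p-1 was expressed at 208, 189 and 225 RPM (207 ± 18.0 RPM), from 1924.3, 2042.5 and 2298 reads. The shifted form thus reached 0.181, 0.150 and 0.175 of the reference (0.169 ± 0.0161) and 14.3% ± 1.16 of the arm.

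The remaining starts of the Mir423 3p arm were weaker. The start at +1, miR-423-3p+1, had 110.5, 113 and 107 reads (10.9 ± 0.844 RPM), and the starts at -2 and +2 had 15 to 22 reads. miR-423-5p, at 140, 107 and 109 RPM (119 ± 18.5 RPM), held 97.8% ± 0.548 of the 5p reads. The 3p arm exceeded the 5p arm 9.51-, 13.4- and 13.7-fold (mean log2 ratio 3.59 ± 0.30), and replicate 1 was lower than the others.

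**Figure D1:**
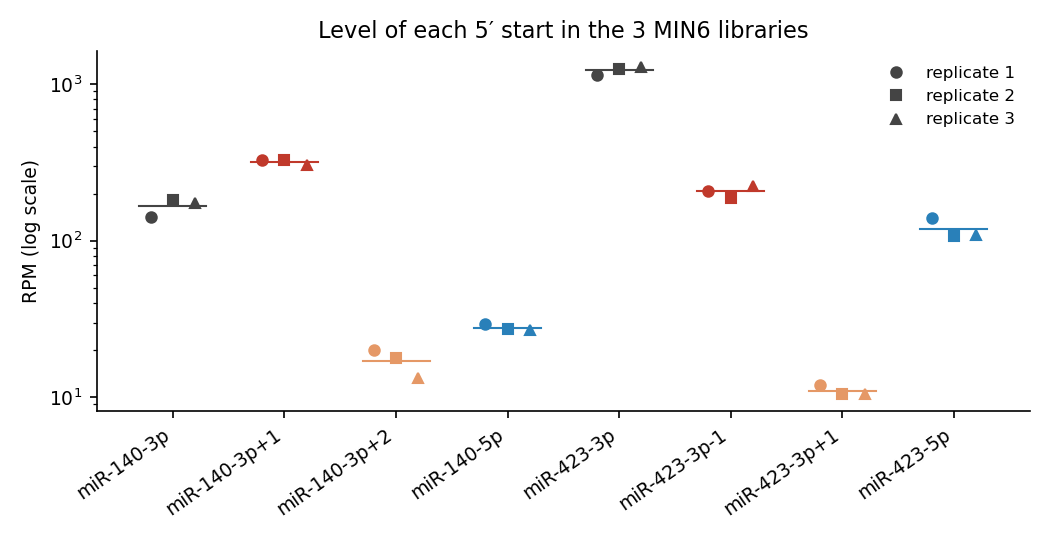
Level of each 5′-start in RPM on a log scale, with a symbol for each of the 3 replicates and a line at their mean. miR-140-3p+1 (304 to 329 RPM) lies above miR-140-3p (141 to 183 RPM) in every library, whereas miR-423-3p-1 (189 to 225 RPM) lies below miR-423-3p (1147 to 1288 RPM).

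The expression order by mean RPM was miR-423-3p, miR-140-3p+1, miR-423-3p-1, miR-140-3p, miR-423-5p, miR-140-5p, miR-140-3p+2 and miR-423-3p+1. miR-140-3p and miR-423-5p are neighbours in this order whose values lay next to each other, at 141 to 183 RPM and 107 to 140 RPM. miR-423-3p-1 (189 to 225 RPM) and miR-140-3p did not overlap, but the gap between the lowest value of the former and the highest of the latter was smaller than the SD of each.

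The 3′-ends of the forms were compared next, because the rule did not use them. Ends are given as the last base that matched the hairpin, after removal of the mismatching tail, and are counted from the reference 5′-start of the 3p arm as base 1, so that the same number denotes the same base for the reference and the shifted forms.

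Both abundant forms of the Mir140 3p arm ended mostly at bases 22 and 23, but in different proportions. Of the miR-140-3p+1 reads, 84.2%, 84.6% and 86.3% ended at base 23 (85.1% ± 1.14, SD, n = 3), and 9.77% ± 0.651 at base 22. Of the miR-140-3p reads, 34.1%, 56.1% and 53.3% ended at base 23 (47.8% ± 12.0), and 48.8%, 32.4% and 33.9% at base 22 (38.4% ± 9.08). The ranges did not overlap between the forms at either base, and the shifted form had its end at base 23 more often in every library. miR-140-3p+2 ended almost solely at base 23, with 94.6%, 95.3% and 95.6% of its reads.

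The distance between the 3′-end profiles, that is, the percentage of reads that would have to move to another end to make the profiles equal, was 45.0%, 27.1% and 29.1% between miR-140-3p+1 and miR-140-3p, here with the end at the last aligned base (33.7% ± 9.77). Between libraries it was 2.29% to 4.18% for miR-140-3p+1 and 3.37% to 18.1% for miR-140-3p. Every distance between the forms was therefore larger than every distance between libraries of a form.

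The same reads also set the length of the forms. miR-140-3p reads were 22.4, 22.8 and 22.7 nt long on average, and miR-140-3p+1 reads were 22.2 nt long in each library. The shifted form was shorter by 0.22, 0.58 and 0.55 nt (mean difference -0.45 ± 0.20 nt, exact two-sided sign-flip permutation p = 0.25, the smallest p that 3 libraries allow), which is less than the 1 base by which its start moved. Single reads are given as shares of all 3p reads, counting only reads without a mismatch before the tail. The most frequent was miR-140-3p+1 ending at base 23 without a tail, 22 nt long, at 30.1% ± 0.611. In the same count, miR-140-3p without a tail was divided between 23 nt (8.15% ± 2.57) and 22 nt (7.66% ± 1.16). The reads left out, with a mismatch before the tail, made up 21.9% ± 0.810 of the miR-140-3p+1 reads and 22.6% ± 0.311 of the miR-140-3p reads.

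The 3′-end of miR-140-3p was also the least stable among the libraries. In reads ending at base 22 the level was similar, at 68.9, 59.4 and 58.9 RPM, whereas reads ending at base 23 stood at 48.1, 103 and 92.6 RPM. Replicate 1 was thus low in the longer form, which was covered by 446 reads there and by 1112 and 946 in the others. The 95% Wilson interval of the base 23 share in replicate 1 was 31.6% to 36.7%, and it did not reach the intervals of the other libraries, 53.9% to 58.2% and 50.9% to 55.6%. The reads of miR-140-3p+1 ending at base 23 did not show this difference, at 274, 278 and 263 RPM.

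The share of reads with the end that was most frequent over the libraries together moved by 22.0 percentage points between the libraries for miR-140-3p. This end, base 23, was held fixed, although in replicate 1 base 22 was more frequent, at 48.8% against 34.1%. A comparison by each library's own most frequent end was not made. The movement of the fixed end was also computed at 205 other 5′-starts with at least 1000 reads in each library and at least 90% single-locus reads. There its median was 1.53 percentage points and its highest value 11.6. None of these 205 starts exceeded miR-140-3p, and 69 exceeded miR-140-3p+1, at 2.18 percentage points. The most frequent end of miR-423-3p moved by 0.610, that of miR-423-3p-1 by 3.07 and that of miR-423-5p by 1.81 percentage points, which was exceeded by 172, 42 and 83 of the other starts. What set replicate 1 apart at miR-140-3p was not tested.

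**Figure D2:**
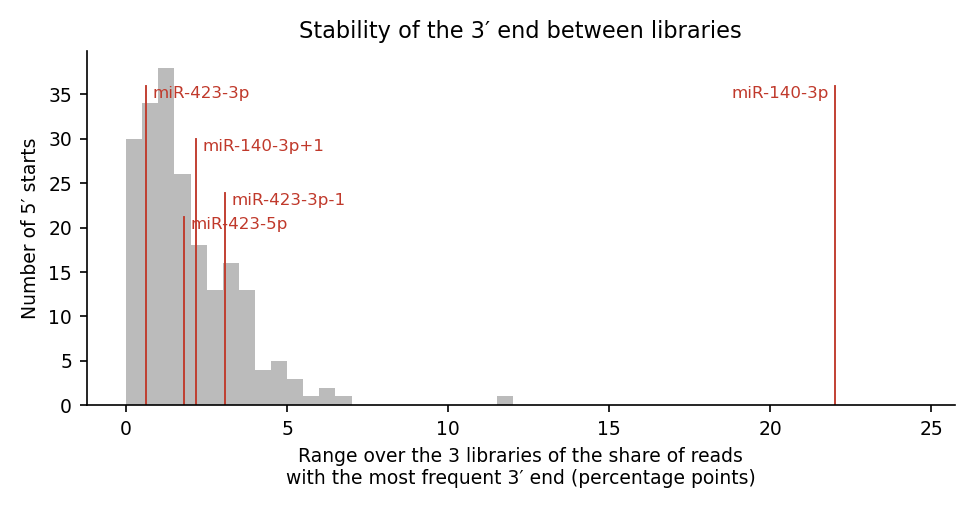
Histogram of 205 other 5′-starts by the range over the 3 libraries of the share of reads with 1 fixed 3′-end, in percentage points, with red lines for the described starts. The fixed end is the most frequent over the libraries together, which is base 23 for miR-140-3p. miR-140-3p stands at 22.0 percentage points, beyond the highest other start at 11.6, whereas the remaining lines lie at 0.610 to 3.07.

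The 3p forms of Mir423 shared their main 3′-end, and a shorter end took a larger share of the shifted form. Base 23 was the end of 84.5%, 85.1% and 85.1% of the miR-423-3p reads (84.9% ± 0.345, SD, n = 3) and of 70.5%, 73.2% and 73.6% of the miR-423-3p-1 reads (72.4% ± 1.68). An end at base 19 was found in 12.7%, 10.1% and 9.23% of the miR-423-3p-1 reads, which are then 20 nt long, but in only 3.02%, 2.76% and 2.42% of the miR-423-3p reads. The ranges of the forms did not overlap at base 23 or at base 19.

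The shorter reads were few relative to the arm, since the miR-423-3p-1 reads ending at base 19 stood at 22.0 ± 3.76 RPM and those of miR-423-3p at 33.4 ± 2.01 RPM. The distance between the profiles, again with the end at the last aligned base, was 13.4%, 11.5% and 11.2% (12.1% ± 1.20). Between libraries it was 1.21% to 2.30% for miR-423-3p and 3.29% to 6.05% for miR-423-3p-1. miR-423-3p-1 was longer than miR-423-3p by 0.48, 0.56 and 0.56 nt (0.53 ± 0.05 nt, exact sign-flip permutation p = 0.25), again less than the 1 base by which it begins earlier. Counting only reads without a mismatch before the tail, the complete miR-423-3p of 23 nt made up 44.7% ± 0.573 of all reads of the arm. The 24 nt read of miR-423-3p-1 that ends at the same base made up 8.38% ± 0.627. This count leaves out more of the reference form. A mismatch before the tail was found in 26.4% ± 0.503 of the miR-423-3p reads and in 5.13% ± 0.427 of the miR-423-3p-1 reads.

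**Figure D3:**
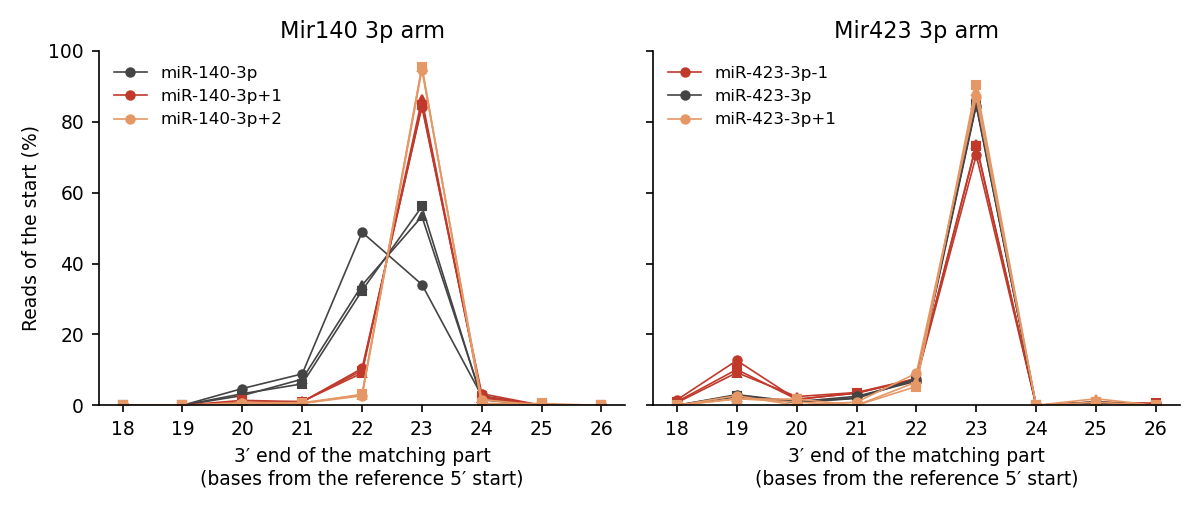
Percentage of the reads of each 5′-start against the last base that matches the hairpin, counted from the reference 5′-start of the arm, with a line for each replicate (circle, square and triangle for replicates 1, 2 and 3). miR-140-3p is divided between bases 22 and 23 and its replicate 1 stands apart, whereas miR-140-3p+1 peaks at base 23 (84.2% to 86.3%), and miR-423-3p-1 has an additional peak at base 19 (9.23% to 12.7%).

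On the 5p arms the ends differed as well. miR-140-5p ended at its nucleotide 22 in 83.9% ± 2.60 of its reads. miR-423-5p had a broader profile, with 47.7% ± 0.921 of its reads at 23 nt, 20.9% ± 2.24 at 21 nt, 13.0% ± 0.895 at 24 nt and 11.7% ± 1.08 at 22 nt, counted over the part that matches the hairpin.

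Mismatching 3′-tails were frequent on the 3p arm of Mir140, and most of them were uridine. They were found in 21.3%, 27.9% and 26.9% of the miR-140-3p reads (25.4% ± 3.54, SD, n = 3) and in 29.9%, 28.8% and 27.1% of the miR-140-3p+1 reads (28.6% ± 1.38). The shifted form was higher by 8.55, 0.90 and 0.27 percentage points (3.24 ± 4.61, exact two-sided sign-flip permutation p = 0.25), and without replicate 1 the mean difference was 0.588. The difference thus rests on the library in which miR-140-3p had fewer reads ending at base 23.

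Tails of uridine alone were found in 12.8%, 21.7% and 19.7% of the miR-140-3p reads and in 26.4%, 24.8% and 23.5% of the miR-140-3p+1 reads, ranges that did not overlap. When only reads whose matching part ended at base 23 were counted, uridine tails were present in 28.5%, 35.8% and 32.7% of the miR-140-3p reads (32.3% ± 3.67) and in 29.2%, 27.8% and 25.5% of the miR-140-3p+1 reads (27.5% ± 1.84). The difference then changed sign in replicates 2 and 3 (0.67, -8.03 and -7.16 percentage points, exact permutation p = 0.5). At this end the next base of the hairpin is A, so that an added A would be counted as a match and cannot be seen.

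miR-140-3p+2 carried a uridine tail in most of its reads. At base 23, 78.4%, 80.9% and 81.4% of its reads had a tail of uridine alone (80.2% ± 1.60, SD, n = 3), which was far above miR-140-3p and miR-140-3p+1 in every library. These shares rest on 138 of 176, 148 of 183 and 105 of 129 reads, with 95% Wilson intervals of 71.8% to 83.8%, 74.6% to 85.9% and 73.8% to 87.2%. Its most frequent read was 22 nt long with the tail, the length that miR-140-3p+1 has at the same base without a tail.

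The reads that ended at base 22 differed between the forms in their tails too. There a tail of any kind was found in 19.9%, 20.6% and 22.8% of the miR-140-3p reads and in 38.5%, 39.8% and 37.1% of the miR-140-3p+1 reads, a difference of 17.4 ± 2.68 percentage points (exact sign-flip permutation p = 0.25). Tails of adenosine alone were found in 14.6% ± 1.44 and 15.2% ± 2.68 of these reads, and their difference took both signs (1.35, 4.03 and -3.56 percentage points). Tails of uridine alone were found in 4.20% ± 0.457 of the miR-140-3p reads and in 12.9% ± 2.58 of the miR-140-3p+1 reads, and tails of more than 1 base in 2.86% ± 0.483 and 10.1% ± 0.216. Over all reads, adenosine tails were found in 5.67% ± 1.07 of the miR-140-3p reads and in 1.66% ± 0.376 of the miR-140-3p+1 reads. An added A cannot be seen at base 23, where 47.8% of the miR-140-3p and 85.1% of the miR-140-3p+1 reads ended. The shares over all reads thus depend on the ends of the forms as well. At base 22 the next base is C, so that an added C cannot be seen there. In either hairpin, a read with a wrong base at base 23, alone or before a tail, is counted as a tailed read ending at base 22. How many reads this concerns was not tested. In replicate 1, miR-140-3p+1 had 2542 reads ending at base 23 and 314 at base 22, and miR-140-3p had 446 and 639.

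miR-140-5p was tailed more often than the abundant forms of its opposite arm. A mismatching tail was found in 50.2%, 47.4% and 51.5% of its reads (49.7% ± 2.11), and in 47.9% ± 1.93 it was uridine alone. The read of 23 nt with a single uridine (41.5% ± 1.26 of the 5p reads) was more frequent than the 22 nt read without a tail (33.0% ± 0.527). Both shares count only reads without a mismatch before the tail, which was found in 10.6% ± 0.698 of the miR-140-5p reads.

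The forms of Mir423 were tailed less often and differed little at their main end. Tails were found in 17.5%, 17.5% and 16.9% of the miR-423-3p reads (17.3% ± 0.330) and in 19.1%, 19.4% and 17.8% of the miR-423-3p-1 reads (18.8% ± 0.890), a difference of 1.46 ± 0.57 percentage points (exact sign-flip permutation p = 0.25). At base 23 uridine tails were present in 13.3% ± 0.575 and 12.4% ± 0.916 of the reads of these forms, and the difference was -0.94 ± 0.65 percentage points.

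Reads of Mir423 ending at base 22 differed more between the forms. A tail of any kind was found in 29.0% ± 0.0812 of such miR-423-3p reads and in 55.9% ± 5.85 of such miR-423-3p-1 reads, a difference of 26.9 ± 5.80 percentage points (exact sign-flip permutation p = 0.25). A tail of adenosine alone was found in 25.2%, 26.0% and 25.9% of such miR-423-3p reads and in 47.5%, 43.4% and 41.4% of such miR-423-3p-1 reads. This difference was 18.4 ± 3.49 percentage points (exact sign-flip permutation p = 0.25). A single cytidine was found in 1.10%, 0.699% and 0.609% of the miR-423-3p reads and in 8.51%, 8.55% and 5.17% of the miR-423-3p-1 reads. The ranges of the forms did not overlap for any of these tails, but the reads number only 141, 152 and 174 for the shifted form. The next base of the hairpin is U at this end, so that an added U would not be seen. miR-423-5p had few tails, at 5.39%, 4.24% and 5.56% of its reads, and the next base is U at its ends of 21, 22 and 23 nt as well.

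At the 205 other 5′-starts the median share of reads with a mismatching tail was 5.25%, with quartiles of 1.52% and 15.6%. The shares of miR-140-3p+1, miR-140-3p, miR-423-3p-1 and miR-423-3p lay above the upper quartile, and were exceeded by 24, 26, 45 and 47 of these starts. miR-423-5p lay near the median and was exceeded by 106.

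**Figure D4:**
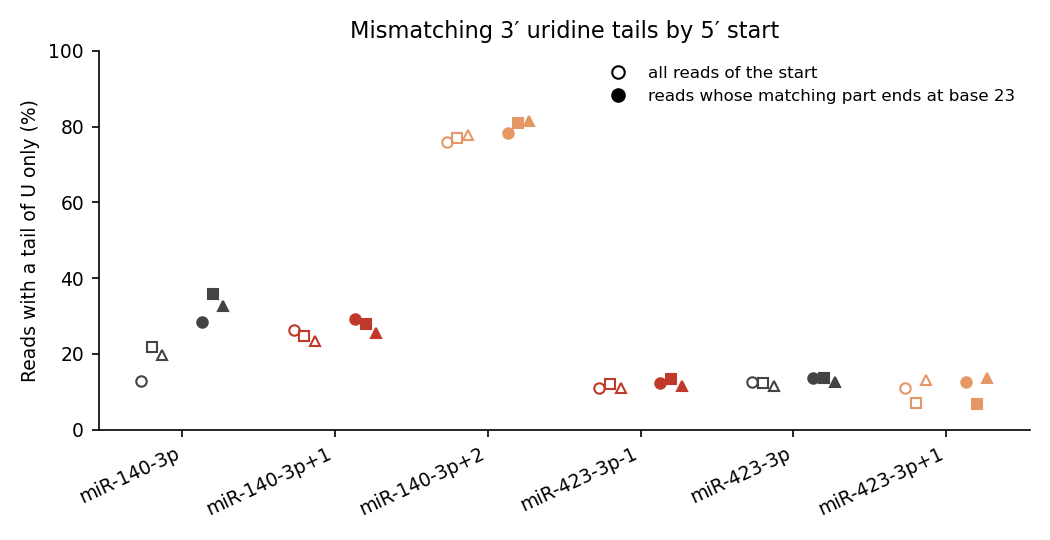
Percentage of reads with a mismatching 3′-tail of uridine alone for each 3p start, over all its reads (open symbols) and over the reads whose matching part ends at base 23 (filled symbols), with circle, square and triangle for replicates 1, 2 and 3. miR-140-3p+2 stands at 78.4% to 81.4% at base 23, above miR-140-3p (28.5% to 35.8%), miR-140-3p+1 (25.5% to 29.2%) and the forms of Mir423.

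The frequent mismatches inside the reads were of a single kind. All 16 substitutions found in at least 1% of the reads of a start replaced A by C, and these are written here with the base of the hairpin, the position counted from the 5′-end of the read and the base of the read. In miR-140-3p+1, A6C was present in 10.5%, 10.4% and 10.8% of the reads (10.5% ± 0.222, SD, n = 3). This position lies in the seed, so that 10.9% ± 0.243 of the miR-140-3p+1 reads had a mismatch in the seed, compared with 0.890% ± 0.0393 of the miR-140-3p reads.

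The same base of the hairpin, number 51, was read differently in the other forms. In miR-140-3p, where it is A7C, the mismatch was found in 0.494% ± 0.112 of the reads, and in miR-140-3p+2, where it is A5C, in 0 of 186, 192 and 135 reads, which allows a share of up to 1.61%, 1.56% and 2.22%. Hairpin base 56 was A12C in 19.9% ± 0.436 of the miR-140-3p reads, A11C in 5.88% ± 0.334 of the miR-140-3p+1 reads and A10C in 6.42% ± 1.72 of the miR-140-3p+2 reads. Hairpin base 66, near the 3′-end, was A22C in 0 of 1123 to 1790 reads of miR-140-3p, A21C in 1.33% ± 0.0278 of the miR-140-3p+1 reads and A20C in 8.75% ± 1.47 of the miR-140-3p+2 reads.

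Mir423 showed the same dependence on the position in the read. Hairpin base 76 was A12C in 22.0%, 22.6% and 22.5% of the miR-423-3p reads (22.3% ± 0.279), but A13C in only 0.115% ± 0.0624 of the miR-423-3p-1 reads. In total 23.6% ± 0.428 of the miR-423-3p reads and 0.638% ± 0.129 of the miR-423-3p-1 reads carried an A-to-C mismatch. An inner mismatch of any kind was found in 26.4% ± 0.503 and 5.13% ± 0.427 of the reads of these forms, so that most of those of miR-423-3p-1 were of other kinds, each in less than 1% of the reads. On the opposite arms, A11C was found in 7.63% ± 0.681 of the miR-140-5p reads and in 7.85% ± 0.696 of the miR-423-5p reads.

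Positions 1 to 17 of the read were examined in 105 other miRNA starts with at least 1000 reads in each library. The mismatches at positions 20, 21 and 22 were therefore not compared with other starts. Where the hairpin has A, the median share of reads with C was 8.98% at position 6, 0.412% at position 7, 7.65% at position 11, 18.5% at position 12 and 0.0226% at position 13. Where the hairpin has G or U at position 12, the median share of reads with C was 0.0130%. The shares at Mir140 and Mir423 lay within the range of these other starts at positions 6, 7, 11 and 12. At position 13 miR-423-3p-1, at 0.115%, lay above the highest of them, 0.0813%. The share of A-to-C mismatches thus changed with the position in the read at these other starts as well, and its cause was not tested.

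**Figure D5:**
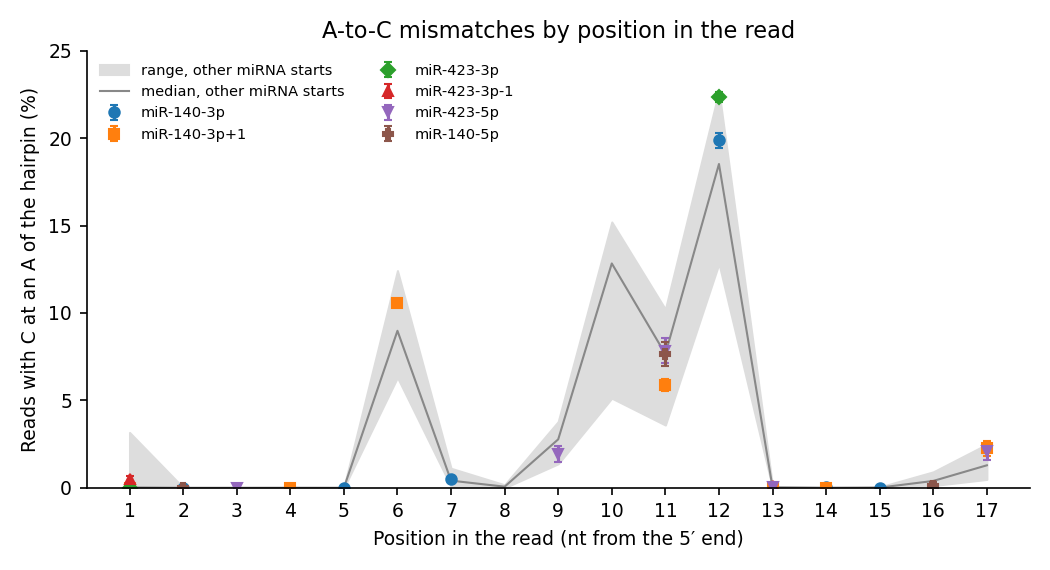
Percentage of reads with C at an A of the hairpin against the position in the read (nt from the 5′-end), as mean and SD over the 3 libraries for 6 starts of Mir140 and Mir423, with the median and range of the other miRNA starts in gray. miR-140-3p+1 at position 6 (10.5%), miR-140-3p at position 12 (19.9%) and miR-423-3p at position 12 (22.3%) lie within the gray range of the same position.

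Among the 22 distinct names with a shifted start in the study's list, of which miR-101a-3p-1 is listed more than once, 21 could be placed together with their reference, 19 of them outside Mir140 and Mir423. Ordered by the ratio of the shifted form to its reference, miR-140-3p+1 ranked 5 and miR-423-3p-1 ranked 12 of 21. The nearest to miR-140-3p+1 on the log2 scale, over 3 libraries, were miR-101a-3p-1 (ratio 2.15 ± 0.105), miR-483-3p+1 (2.55 ± 0.0810) and miR-409-3p-1 (0.526 ± 0.0416). The nearest to miR-423-3p-1 were miR-210-3p-1 (0.156 ± 0.00662), miR-411-5p-1 (0.191 ± 0.00417) and miR-29a-3p-1 (0.121 ± 0.00295). The SD of the miR-140-3p+1 ratio, 0.310, was larger than those of these 6 pairs, whose ratios differ in size. It was smaller than those of miR-136-3p-1 (0.331) and miR-5099-2 (17.4). Of the reads of the miR-5099-2 reference, only 43.6% had a single locus. miR-5099-2, miR-375-3p-1, miR-375-3p+1 and miR-151-3p-2 were placed by their values alone, without a sequence check. Ordered by the distance between the 3′-end profiles of the shifted form and its reference, largest first, miR-140-3p+1 ranked 10 and miR-423-3p-1 ranked 15 of 21.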

How the data were processed

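Small RNA of 3 MIN6 replicates was analysed from alignments. Per the study's methods, cutAdapt was used by the authors to remove the adaptor, and reads from 14 up to 41 nt were first mapped exactly with Bowtie (mm9 in the submitters' processing notes). What was left was aligned near those exact matches by SHRiMP, allowing fewer 3′ mismatches in shorter reads, so tails of short reads can be missed. The deposited values are expected counts: the authors divided a read among equally good loci and did not scale by depth.

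RPM of all mapped reads (9269795 to 10816006 per library), ends, tails and mismatches were obtained in Python 3.11.15 with pandas 2.3.3, numpy 2.4.6 and scipy 1.17.1; matplotlib 3.10.9 drew the plots. The end of every alignment marked "Exact", which is 1 base short, was corrected, and the parser was tested on simulated data. Starts were matched to the study's list within 0.2% in every library. Where a sequence was available, a match was kept only if hardly any of its mismatching bases equalled the hairpin base. Of 8748.7 and 19643.5 mismatching read bases on Mir140 and Mir423, 0 equalled it, which partly repeats this filter. Whole counts were taken as single-locus reads.

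Differences were tested within libraries by exact two-sided sign-flip permutation tests. The test set for the arm ratios is not given, since levels chose the members. Members and lists were chosen with earlier results of these data known. Named were the starts of the rule, miR-140-5p (the most abundant 5p start), the other starts with at least 10 reads in every library, and the 3 shifted miRNAs nearest in ratio to each shifted member. The details of miR-140-3p+2 and of the ends at bases 19 and 22 were singled out after their values were seen. Wilson intervals (95%) cover counting error only. Alternatives were single-locus reads, reads of 16 to 27 nt, reads without a mismatch, another denominator, only the reference start of each arm, mismatches in the last 3 bases, other read minimums and leaving out each replicate. Ends without the mismatching tail were added after seeing the data.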

Additional observations from a re-analysis of the deposited data

How the results depend on the processing

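With 3 libraries no exact test could pass 0.05, so the tests themselves say nothing about stability, and the values are given instead. In 0 of the recomputed values did a length difference, a tail difference over all reads or a log2 arm ratio change its sign. The tail differences among reads with the same 3′-end were not recomputed under these settings. Some of those for the miR-140 forms took both signs between the libraries, so their sign is not known to be stable. The ratio of miR-423-3p-1 to miR-423-3p was 0.214 instead of 0.169 with reads without a mismatch, a setting that by construction removes the reads of miR-423-3p with A12C, and the number of 5′-starts was 9 instead of 4 in Mir140 and 11 instead of 6 in Mir423 with at least 1 read in every library. With at least 100 reads it was 4 in each hairpin. With reads without a mismatch the 3′-end distance of the miR-140 forms was 43.3%, and without the mismatching tail it was 38.0%. Leaving out each replicate gave a ratio of miR-140-3p+1 to miR-140-3p of 1.77 to 2.05, a 3′-end distance of 28.1% to 37.1%, a length difference of -0.57 to -0.39 nt and a tail difference of 0.588 to 4.73 percentage points, the lowest without replicate 1, instead of 3.24. For miR-423 these were 0.163 to 0.178, 11.4% to 12.5%, 0.52 to 0.56 nt and 1.22 to 1.78 percentage points. With only the reference start of each arm the log2 arm ratio of Mir140 was 2.57 instead of 4.17, since most 3p reads begin at +1, and that of Mir423 was 3.38 instead of 3.59. Among the values of single starts, 33 of 104 moved by more than the SD between replicates. Many of these are levels in RPM under settings that also change the denominator, which rescales every start. With single-locus reads, for example, the level of miR-140-3p was 198 instead of 166 RPM, although 100% of its reads had a single locus. With reads without a mismatch, both counted and used as the denominator, the level of miR-140-3p+2 was 3.09 instead of 17.0 RPM and that of miR-140-5p 16.8 instead of 27.8 RPM. By construction this setting removes every read with a mismatching tail. With mismatches in the last 3 bases the tail share of miR-423-3p+1 was 25.5% instead of 15.2%. In its reads of 22 nt that setting also counts A20C, which was found in 11.2% of the miR-423-3p+1 reads. No paired analysis was possible because the replicates form 1 group and no groups share replicate numbers; the forms themselves were compared within each library. Starts below 10 reads, and shares of starts with 100 to 200 reads, are known only within their counting intervals.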
